A study of Drosophila melanogaster with 35 samples.

Results

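The transcripts described here held their level from the larval wing to the pupal wing at 24h after pupa formation and then fell by 36h in control animals. They were chosen by a rule on group means of log2 RMA intensity, the deposited expression value of a transcript, and 116 of the 15473 transcripts on the array met it. A member had a control level of at least 8 at 24h, a control change of less than 0.7 in size from larva to 24h, and a control change of -1.2 or lower from 24h to 36h. At the larval stage it had to lie less than 1 above control in the line that overexpresses E2F1 and DP. In the line that overexpresses Cabut it had to lie within 0.8 of control at 24h, at 36h or at both. The 3 control conditions alone left 129 transcripts, the larval condition removed 2 of these, and the Cabut condition removed 11. Of the members, 112 met the Cabut condition at 24h, 84 met it at 36h and 80 met it at both stages.

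The series holds 35 1-colour arrays of dissected Drosophila melanogaster wings, with 10 wings in each sample. All animals, controls included, carried apterous-Gal4, which drives expression in dorsal wing cells, together with a UAS-GFP reporter and a temperature-sensitive Gal80 under the tubulin promoter, which holds Gal4 silent at low temperature. The control line carried no further transgene, the E2F1DP line carried UAS-dE2F1 and UASdDP, and the Cbt line carried UAS-Cabut. Animals were raised at 18 °C and shifted to 28 °C to switch the transgenes on. Each line was sampled as wandering larvae of the last instar (L3) and in the pupa at 24h and 36h, with 4 samples in each group and 3 for E2F1DP at L3. A sample is a whole wing, so cells without driver activity are measured together with those that have it. In such bulk RNA, fewer cells of a type and less RNA per cell cannot be told apart.

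E2F1 with its partner DP switches on genes of DNA replication and the cell cycle, and Cabut is a zinc finger transcription factor of the Krüppel-like family. In normal development the cells of the fly wing stop dividing about a day after pupa formation, and the epithelium afterwards forms wing hairs and lays down cuticle. The arrays name a feature by its FlyBase transcript ID only, and none of the 116 members was found in the RefSeq gene table of Release 6, which held 44 of all 15473 IDs. The members are therefore described by their values, and gene lists, cell type markers, the level of the transgenes and the sequences of the members were not analysed here. Different members may be transcripts of the same gene.

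The conditions of the rule fixed the control profile of the members, which is given as a description with no test. On the larval control arrays the median log2 level over the members was 11.11, 11.48, 11.42 and 11.29, and the arrays of 24h gave 11.29, 11.37, 11.00 and 11.22. At 36h it was 9.55, 9.56, 9.31 and 9.62. All arrays of 36h thus lay below all of the earlier stages, while L3 and 24h overlapped. The median of all 15473 transcripts, by contrast, was 9.60 to 9.80 on the L3 arrays, 9.28 to 10.02 on those of 24h and 9.63 to 9.74 on those of 36h. The median change of the members from 24h to 36h was -1.46, with single members down to -3.56. A fall of at least 2 was found in 16 members and one of at least 3 in 3 members. Of the members, 112 were called lower at an adjusted p under 0.05 (limma, adjusted over all 15473 transcripts), where 12.7% of all transcripts were called lower, and the rule fixed this count. From L3 to 36h 111 members were called lower and none higher (limma, none at an unadjusted p under 0.05), against 24.1% and 21.5% of all transcripts. From L3 to 24h, where the rule asked for little change, 4 were called lower and 6 higher, against 19.0% and 17.5%.

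**Figure D1:**
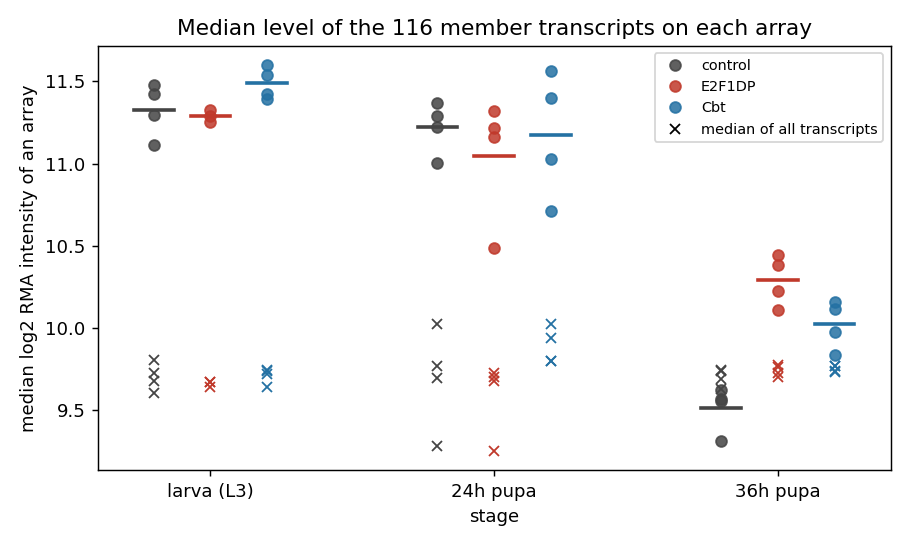
Median log2 RMA intensity of the 116 members on each array (circles, group mean as a bar) and of all transcripts (crosses), by stage and line. Control medians drop from between 11.00 and 11.37 at 24h to between 9.31 and 9.62 at 36h, and the E2F1DP and Cbt arrays of 36h lie above those of control.

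The limit of -1.2 cuts through a continuous range. The members nearest to it had control changes of -1.202, -1.207 and -1.207, and the nearest transcripts outside, which met all other conditions, had -1.199, -1.198 and -1.197. Within 0.1 of the limit lay 25 members on the inside and 35 transcripts on the outside. The members covered most of the intensity range, from 8.21 to 15.15 at 24h in control, with quartiles at 9.86 and 12.62. At 36h the control means ran from 6.22 to 13.92, and 24 members were under 8. No group mean of a member lay under 6.20, the lower quartile of the mean level over all transcripts. Of the members, 58.6% were measured by 5 probes and 41.4% by 4, against 65.3% and 34.6% of all transcripts and 57.1% and 42.9% of the 5735 transcripts that met every condition except the fall.

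The rule used no arrays of E2F1DP wings at 24h or 36h, so the change between them could be tested. The members and the test were, however, chosen with earlier results of these data known. The median over the members was 11.16, 11.21, 11.32 and 10.49 on the 24h arrays and 10.11, 10.44, 10.23 and 10.38 on the 36h arrays. The 36h arrays were again the lower ones, with replicate 4 of 24h standing nearest to them. The median change of the members was -0.52, against -0.03 over all transcripts, and 96 of the 116 members had a negative change. At an adjusted p under 0.05 (limma, adjusted over all 15473 transcripts) 25 members fell, which is 21.6% of them, and 2 rose. Among all transcripts 6.73% fell and 9.18% rose, and among the 5735 transcripts that met the other conditions 5.37% fell and 7.57% rose. These 5735 transcripts were brighter than the members, with array medians of 12.61 to 12.84, and the part of intensity in the shares was not tested. Both a call and a fall of at least 1 were found for 19 members, where 2.62% of all transcripts had both, and a call with a rise of at least 1 for 1 member, against 4.85%. In 26 members all arrays of 36h lay below all arrays of 24h, which was so for 8.14% of all transcripts.

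The number of falling members depended on 1 array. Without replicate 4 of E2F1DP at 24h 40 members fell, against 7.39% of all transcripts, and the median change was -0.72. With array weights, which give noisier arrays less influence, 67 fell, and the share over all transcripts rose as well, to 15.2%. Centring each array on its median shifted the overall median change from -0.03 to -0.18 and that of the members from -0.52 to -0.68, and 38 members then fell. With centring 10.3% of all transcripts fell and the share of higher calls among all called transcripts went from 57.7% to 38.1%. Slides were inferred from a number in the file names, which the labels do not call a slide. By this number slide 4 held an array of each stage, E2F1DP replicate 3 of 36h and replicate 2 of 24h. On it the members' median difference was -0.96, against 0.02 for all transcripts, and 101 members were lower at 36h. With both of these arrays and all others of the slide left out, 18 members were called, and the difference on slide 4 had the same direction for all 18. The share of all transcripts called in that fit is not given here, so nothing is read from this count.

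In E2F1DP wings the members moved less far than in control wings, and since the rule chose large control falls, the gap between these sizes is given without a test. The change was less than 0.5 times the control fall in 86 members, and in 20 of these it was positive. In 25 members it reached at least 0.5 times the control fall without equalling it, and in 5 members it was at least as deep as in control. A single change had a 95% interval with a median half-width of 0.59. That interval lay wholly above -1.2 for 66 members, wholly below 0 for 49 and wholly above 0 for 5, and for 17 it held both 0 and -1.2. These intervals are not adjusted for the number of transcripts. The shares over all transcripts are not given here, so nothing is read from these counts. Across the 116 members the control change and the E2F1DP change, which share no arrays, had Pearson's r of 0.52 and Spearman's rho of 0.30. These are correlations over transcripts measured on the same arrays, and transcripts are not independent replicates.

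**Figure D2:**
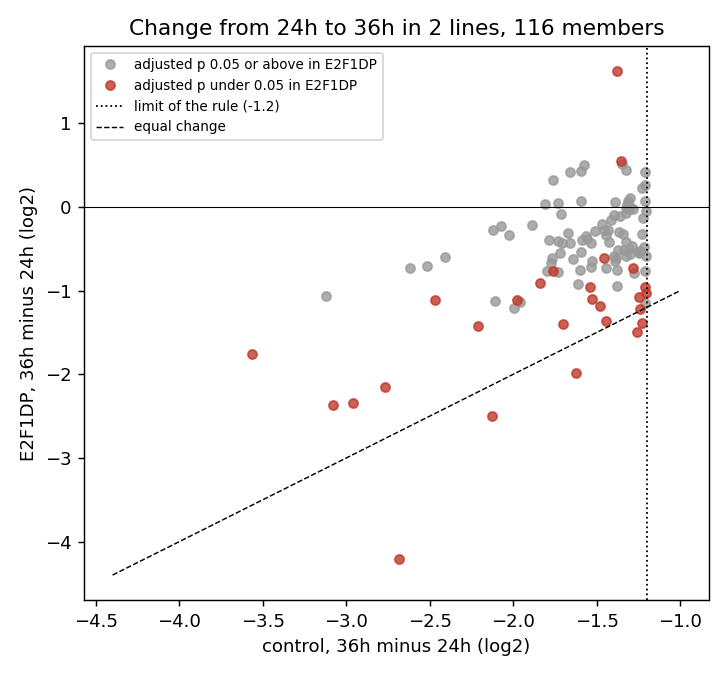
Change from 24h to 36h of each of the 116 members in control (x axis) and in E2F1DP wings (y axis), both in log2, with calls in E2F1DP wings in red. The rule sets the limit at -1.2 on the x axis. Most points lie above the dashed line of equal change, and 5 members fell at least as far in E2F1DP wings as in control.

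The share of transcripts that fell in E2F1DP wings did not step up at the limit of the rule. Of the 61 members with a control change between -1.5 and -1.2, 16.4% fell in E2F1DP wings, and of the 39 with a change between -2 and -1.5 17.9% did. Among the transcripts just outside, with a control change between -1.2 and -0.9, 15.5% of 174 fell, and between -0.9 and -0.6 15.1% of 391 did. The share was 4.6% of 1566 for control changes between -0.3 and 0. The 16 members with the deepest control falls, of 2 or more, held 8 of the 25 calls, and their median E2F1DP change was -1.12. Apart from this small set of 16, the shares next to the limit lay between 15.1% and 17.9% on both sides of it.

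**Figure D3:**
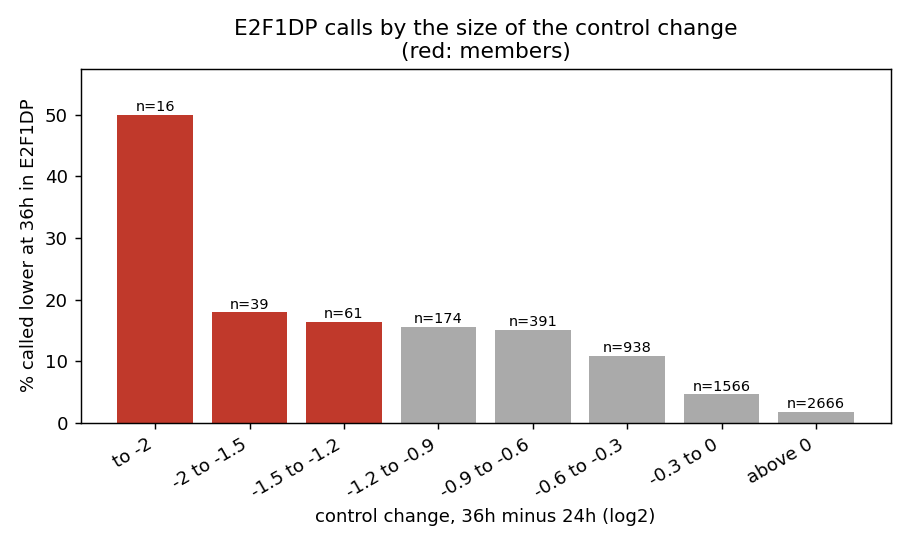
Percentage of transcripts called lower at 36h than at 24h in E2F1DP wings, by the control change over the same period, for the 116 members (red) and the 5735 transcripts that met all conditions except the fall (grey). The bars beside the limit of -1.2 are nearly equal, at 16.4% and 15.5%, and the bar of 50% at the left holds 16 members.

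The members were not uniform in E2F1DP wings, as the transcripts with the most extreme changes show. FBtr0073784 had log2 levels of 14.03, 13.93, 14.18 and 13.89 on the E2F1DP arrays of 24h and 9.53, 9.48, 10.05 and 10.14 on those of 36h. It fell by 4.21 (SE 0.32, limma adjusted p = 7.9e-11), with no overlap between the stages. At L3 it stood at 12.49, 12.33 and 12.50, so its 24h level was above the larval one, whereas control wings held a larval mean of 12.58 ± 0.20 and a 24h mean of 12.46 ± 0.30 (SD, n = 4). At 36h the E2F1DP mean of 9.80 ± 0.34 and the control mean of 9.78 ± 0.07 (SD, n = 4) differed by less than the spread. FBtr0071768 had levels of 10.14, 9.93, 10.50 and 10.86 at 24h in E2F1DP wings and 7.62, 7.84, 7.87 and 8.08 at 36h. Again without overlap, it fell by 2.504 (SE 0.29, limma adjusted p = 1.4e-07), after larval levels of 8.80, 8.76 and 8.78. At 36h its control arrays stood at 5.94, 6.39, 5.80 and 6.72, below all E2F1DP arrays of that stage. Their mean of 6.22 was the lowest control mean of any member at 36h. It lay close to 6.20, the lower quartile over all transcripts, where no background level is known.

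FBtr0086555 went the other way. Its E2F1DP levels were 12.80, 12.65 and 12.38 in the larva, then 11.08, 11.13, 10.68 and 11.40 at 24h, and 12.79, 12.90, 12.51 and 12.59 on the 36h arrays. The low point was thus at 24h, and the rise to 36h of 1.62 (SE 0.22, limma adjusted p = 1.9e-06) had no overlap between the stages. Control wings held 13.19 ± 0.28 at 24h and 11.81 ± 0.24 at 36h (SD, n = 4), so at 36h this transcript was higher in E2F1DP than in control. The same was seen in Cbt wings, with arrays at 13.00, 12.93, 12.47 and 13.10 at 36h. At 24h the Cbt arrays stood at 13.09, 12.60, 12.94 and 12.84. FBtr0081745 had E2F1DP levels of 11.21, 11.26 and 11.19 in the larva, 9.36, 9.56, 8.56 and 9.33 at 24h, and 9.60, 9.91, 10.01 and 9.51 at 36h. Its level had thus dropped by 24h and the arrays of the later stages overlapped. At 36h the control arrays stood at 10.51, 9.91, 10.23 and 10.48, so this transcript did not stand above control. The Cbt arrays of 36h, at 11.69, 11.18, 11.35 and 11.84, lay above those of both other lines. The E2F1DP rise of 0.56 (SE 0.19, limma adjusted p = 0.044) lost its call under 12 of 19 alternatives. Over all 19 the change ranged from 0.34 to 0.67 and the limma adjusted p from 0.021 to 0.23. The changes of the other 3 transcripts named here kept their direction and their call under all 19.

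**Figure D4:**
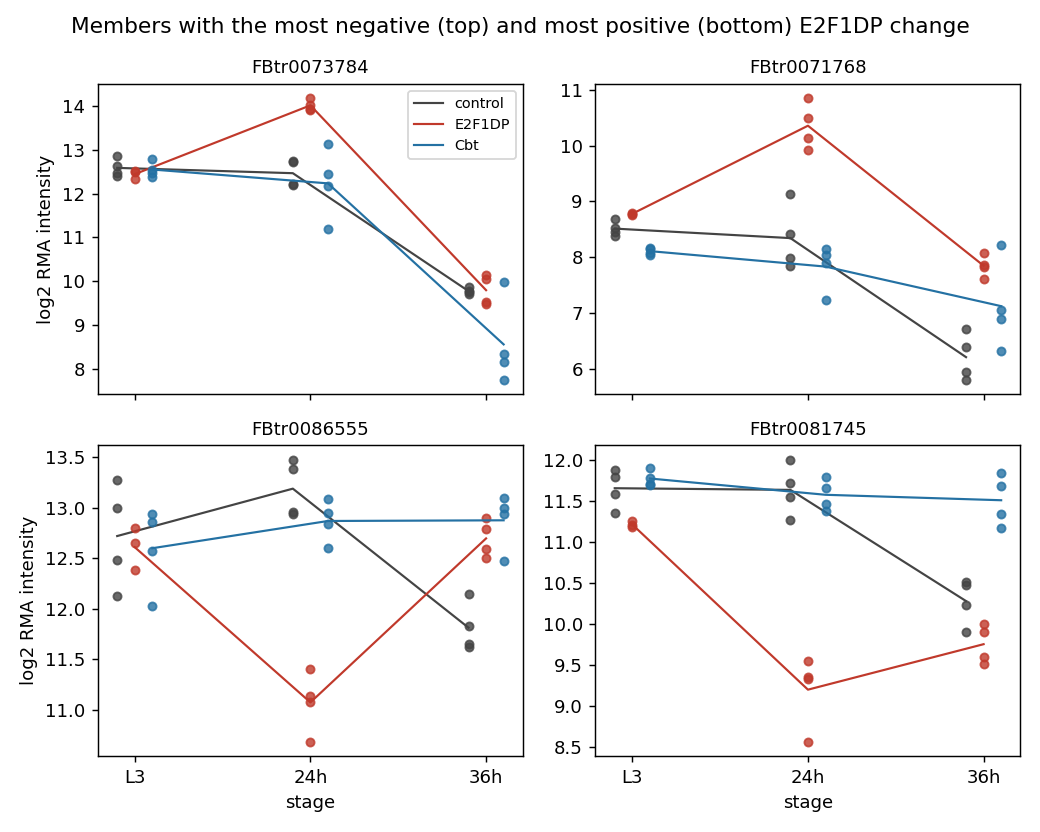
Log2 RMA intensity on every array of the members with the most negative E2F1DP change from 24h to 36h (upper panels) and the most positive one (lower panels), with lines through the group means. In the upper panels the E2F1DP arrays peak at 24h, and in FBtr0086555 they are lowest at 24h, while control arrays fall from 24h to 36h in all panels.

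Over all members the lowest E2F1DP mean was that of 36h in 88 and that of 24h in 16. From L3 to 24h the median E2F1DP change of the members was -0.28, from -2.02 to 1.58. In that comparison, which uses the larval arrays that the rule capped, 14 members were called lower and 10 higher, where 9.19% and 8.05% of all transcripts were. From L3 to 36h the median change was -0.90, with 58 members called lower and 4 higher, against 17.1% and 15.3% of all transcripts. A level at least 1 above the larval one was seen at 24h in 9 members. The label of transcripts that fall only after 24h therefore describes the control profile, and the rule does not ask for it in E2F1DP wings.

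At each stage the members can be set beside control, whose arrays the rule used, so the following counts are descriptions. At L3 the median difference of E2F1DP from control was 0.10, with 1 member called lower and none higher (limma, 6 higher and 8 lower at an unadjusted p under 0.05), against 0.407% and 0.452% of all transcripts. At 24h the median difference was -0.30, and 25 members were called lower and 16 higher, against 14.6% and 12.4% of all transcripts. Without replicate 4 of E2F1DP at 24h that median was -0.02. At 36h the median difference was 0.81, from -0.92 to 3.75, and 105 members lay above control. At this stage 61 members were called higher and 2 lower, against 12.3% and 11.3% of all transcripts. The rule picked transcripts with low control means at 36h, and nothing is read from these counts. Slide 1 held E2F1DP replicate 2 and control replicate 4 from the 36h stage, and there the members' median difference was 0.72, against -0.02 for all transcripts. At 24h slides 2 and 7 held both lines, and on them the members' median difference was -0.34 and -0.61, against -0.03 and -0.001 for all transcripts. The E2F1DP array on slide 7 was replicate 4, the array without which the members' median was -0.02.

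**Figure D5:**
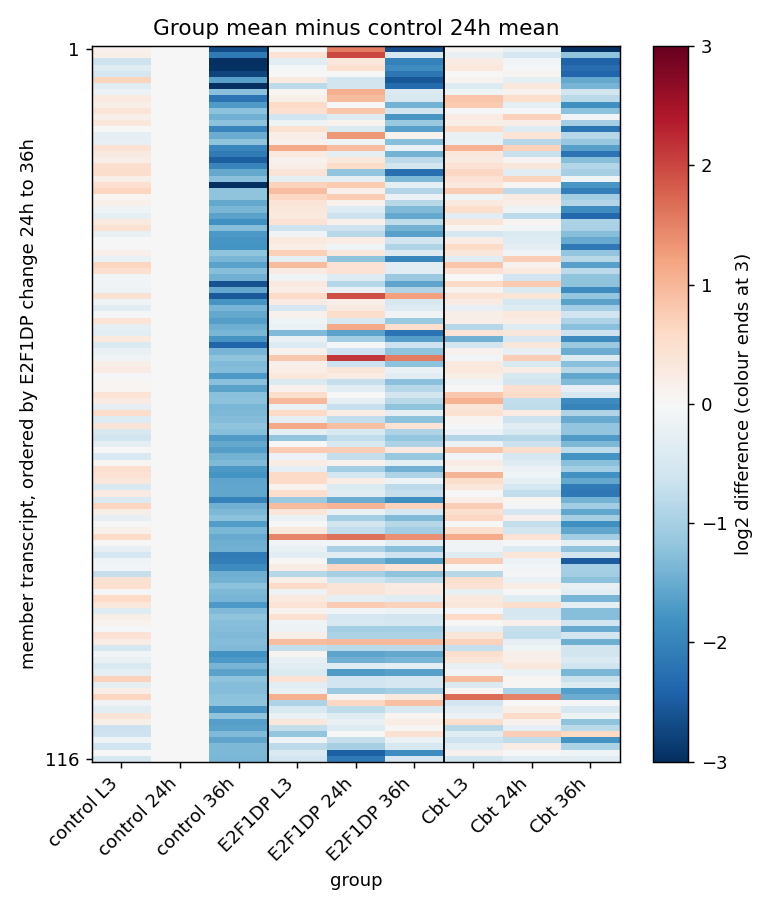
Group mean of each of the 116 members minus its control 24h mean, in log2, for the 9 groups, with members ordered by their E2F1DP change from 24h to 36h. The control 36h column is blue throughout by the rule, the E2F1DP 24h column holds both red and blue members, and the Cbt 36h column is blue in most rows.

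For Cbt wings the rule asked for closeness to control at 24h, at 36h or at both, so their pupal values are a description. The median over the members was 11.42, 11.54, 11.39 and 11.60 on the L3 arrays, 11.40, 11.56, 11.03 and 10.71 on those of 24h and 9.83, 10.11, 9.98 and 10.16 on those of 36h. All arrays of 36h lay below the others, and replicates 3 and 4 of 24h lay below all arrays of L3. From 24h to 36h the median change was -1.06, from -3.67 to 0.17. In this comparison 84 members were called lower and none higher (limma, none higher at an unadjusted p under 0.05 either), against 12.7% and 8.27% of all transcripts. When the model also held a term for each slide, 46 members were called lower, against 6.45% of all transcripts. Centring each array on its median moved the overall median change from -0.07 to 0.06. With it 70 members were called lower, against 7.70% of all transcripts. Of all called transcripts 58.1% were then higher, where 39.5% had been without centring. From L3 to 24h 22 members were called lower and 11 higher, against 14.3% and 17.0% (8 and 5 with the slide term, against 9.96% and 12.2%), and from L3 to 36h 87 lower and 1 higher, against 25.1% and 21.9%. The lowest Cbt mean was that of 36h in 108 members. On slide 3, with Cbt replicate 1 of 36h and replicate 4 of 24h, the members' median difference was -0.77, against 0.001 for all transcripts. On it 98 members were lower at 36h. With all arrays of that slide left out 81 members were called, and 69 of them had the same direction on it. The share of all transcripts called in that fit is not given here, and the rule used pupal Cbt arrays, so nothing is read from these counts.

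Beside control the Cbt values were near 0 at L3, where the rule used no Cbt array, with a median difference of 0.09. There 1 member was called lower and none higher (limma, 10 higher and 3 lower at an unadjusted p under 0.05), against 0.265% and 0.504% of all transcripts. At 24h the median difference was -0.08, with 1 member called lower and 2 higher, against 1.84% and 5.97%. Its sign was not settled, since it became 0.07 without replicate 4 of Cbt at 24h and -0.27 with centred arrays, which moved the median over all transcripts from -0.01 to -0.20. At 36h it was 0.40, with 33 members called higher and 1 lower, against 4.76% and 2.53%. The means of 36h followed the order control, Cbt, E2F1DP from low to high in 54 members, and E2F1DP lay above Cbt in 85. The rule picked low control means at 36h and used the pupal Cbt means. The shares over all transcripts are not given here, so nothing is read from this order. In 31 members the Cbt mean was below that of control. FBtr0073784 was one of these, with Cbt arrays at 9.98, 8.36, 8.17 and 7.75 and control arrays at 9.78, 9.71, 9.76 and 9.87.

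The median SD between replicates was larger for the members than for the transcripts that met the other conditions in all 9 groups. Those transcripts were brighter, with array medians of 12.61 to 12.84, against 9.31 to 11.60 for the members. The part of intensity in the SDs was not tested. Over all transcripts the median SD was larger than that of the members in control at 24h and in both transgenic lines at L3. The median SD of a member was 0.55 in E2F1DP and 0.48 in Cbt at 24h, against 0.36 and 0.29 over all transcripts and 0.28 and 0.24 over those that met the other conditions. At 36h it was 0.36 in control, 0.29 in E2F1DP and 0.49 in Cbt, against 0.24, 0.23 and 0.27 over all transcripts. In control at 24h it was 0.30, against 0.36 over all transcripts and 0.22 over those that met the other conditions, and for the larval E2F1DP arrays 0.13 against 0.14 and 0.09. On E2F1DP replicate 4 of 24h 64 members, or 55.2%, lay below all control arrays of 24h, which held for 29.8% of all transcripts. On replicates 1, 2 and 3 the members' share was 25.9%, 28.4% and 40.5%, against 29.8%, 29.9% and 31.9% of all transcripts. On Cbt replicates 1 to 4 of 24h it was 14.7%, 9.48%, 44.8% and 55.2%, against 16.5%, 13.8%, 27.0% and 23.2% of all transcripts. The median over all transcripts was 9.72, 9.68, 9.25 and 9.70 on E2F1DP replicates 1 to 4 and 10.02, 9.94, 9.79 and 9.80 on those of Cbt, so both Cbt arrays on which the most members were low also had the lower overall medians of their group. The part of array level in these shares was not tested.

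The root mean square deviation of an array from its group mean over all transcripts ran from 0.18 to 0.47 except in 4 arrays of 24h. These were control replicates 2, 3 and 4, at 0.53, 0.66 and 0.51, and E2F1DP replicate 3, at 0.68. Without replicate 3 of both groups, 28 members fell in E2F1DP wings from 24h to 36h and 1 rose, against 7.51% and 7.63% of all transcripts. The control arrays of 24h and 36h shared no slide, so the fall that defines the members could not be seen within a slide. When the model also held a term for each slide, its median was -1.63, and 99 members were called lower, against 6.80% of all transcripts.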

How the data were processed

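Wing RNA carried a Cy3 label and was measured on NimbleGen expression arrays of 1 colour. The authors deposited 1 file per array with a linear expression intensity per FlyBase transcript, made with RMA, which the submitters' processing notes name, and a table of the same values in log2. That table and the log2 of the per-array files differed by at most 5e-09, so the deposited log2 values were used unchanged. RMA corrects background, equalises array distributions and summarises probes. Its version, its settings, the arrays run together and the annotation release are not given in the sources used here. Intensities ran from 14.6 to 64595. The array medians ran from 9.25 to 10.02 in log2, so the deposited arrays still differed in level. The files hold no detection call, and precision is limited by the number of arrays. No pair of arrays was a copy, the smallest root mean square difference being 0.31.

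Group means were fitted to all 35 arrays with limma 3.58.1 in R 4.3.3, with empirical Bayes moderation (26 residual and 2.86 prior degrees of freedom). Adjusted p values are Benjamini-Hochberg over 15473 transcripts. The fit was tested on simulated data. Python 3.11.15 with pandas 2.3.3 and matplotlib 3.10.9 served for tables and plots. Slides were inferred from a number in the file names, which the labels do not call a slide, and numbered 1 to 9. The labels call the samples independent isolations. The members, the lists and the tests were chosen with earlier results of these data known. The gene and marker lists matched no ID. Named transcripts are the 2 members with the most negative and the 2 with the most positive E2F1DP change from 24h to 36h. The main model did not pair the E2F1DP arrays by replicate number. Alternatives covered scaling, slide, replicate block, array weights, dim transcripts, left-out arrays and thresholds.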

Additional observations from a re-analysis of the deposited data

How the results depend on the processing

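The main model gave 25 members that fell and 2 that rose from 24h to 36h in E2F1DP wings, among 1042 and 1420 transcripts. Median centring gave 38, 1, 1590 and 980. Array weights gave 67 lower members, 70 changed members and 4914 changed transcripts, 2359 lower and 2555 higher. With only the compared groups in the model 18 members were lower and 1 higher, among 1402 changed transcripts, 579 lower and 823 higher. The slide as a term left 26 members lower and 1 higher, among 812 lower and 830 higher transcripts. An adjusted p under 0.01 left 19 members lower and 1 higher, among 1512 changed transcripts, 596 lower and 916 higher. A size of at least 1 left 19 members lower and 1 higher, among 1156 changed transcripts, 406 lower and 750 higher. Quantile normalization gave 32 members lower and 1 higher, against 8.13% and 8.56% of all transcripts. Leaving out replicate 3 of control and E2F1DP at 24h gave 28 lower and 1 higher, against 7.51% and 7.63%. Leaving out 1 array at a time gave 20 to 40 lower, 1 to 2 higher and 21 to 42 changed members. Of all transcripts 4.88% to 7.39% were then lower and 7.21% to 11.6% higher. Of the 25 members that fell, 18 to 25 still did so under these models, scalings and left-out arrays.

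With the replicate number as a block 27 members were lower and 2 higher, among 1076 lower and 1473 higher transcripts. Changed transcripts were 2549, against 2462 in the main model. In their deviations from the group means the same-numbered arrays of the compared stages correlated between 0.01 and 0.20, and 1 of 4 pairs exceeded 0.1. Not every array correlated best with its own number. With 4 pairs these values cannot settle whether arrays of equal number share more than the number.

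A fall of at least 1 in the rule gave 211 members and one of at least 1.5 gave 55. Leaving out a control array of 24h or 36h gave 102 to 153, with 98 to 112 of the 116 among them. The members' median changes stayed within the spread of their arrays under both scalings. The array values give no background level, so the detection of dim members could not be judged. The planned slide term for named members was run on their E2F1DP change only.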
